A study of Mus musculus with 24 samples.

Results

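The 8 genes described here, Gzmm, Plk5, Coq10b, Unc5c, Ntng1, Stk3, Gdpd2 and Cys1, had more reads in the retinal pigment epithelium (RPE) of mice with altered Per1 and Per2 genes than in wild type mice, averaged over 4 circadian times. They were picked by name from the genes with that higher average, leaving out clock genes and genes within 20 Mb of Per1 or Per2. They are 8 of 54232 genes in the count table and 8 of the 20275 that had enough reads to be tested. Their genotype difference is therefore how they were chosen, and it is given below as a description with no test. Their course over the day, the genes around them, their promoters and the other genes of their families were not used in the choice, except that an earlier selection had also asked for the same sign of the difference at every time.

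The RPE is the pigmented layer behind the photoreceptors, which takes up shed outer segment tips each day. Male mice 6 weeks old, of the strain background C57BL/6/J x 129 SvEvBrd, were either wild type or Per1-/-Per2Brdm1, a genotype that combines an altered allele of each of 2 clock genes. Eyes were taken at circadian times CT19, CT22, CT1 and CT10, and the layer was cut from frozen eyes with a laser, with no other treatment named. Each of the 8 groups held 3 libraries. Of the 24 libraries, 5 pooled 2 eyes: 1 knockout library at each time and 1 wild type library at CT1. "Knockout" names the libraries labelled Per1-/-Per2Brdm1. The labels do not say that the libraries came from separate animals, and the p-values cover the spread among libraries, which may be technical.

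Library totals ran from 16245067 to 32066263 counts, and the 8 genes had between 54 (Gdpd2) and 9421 (Plk5) counts in a library. All 10 RPE markers were detected, with a summed level of 33618 to 65688 CPM (counts scaled to a common library total) in every library, led by Ttr, Rgr and Rpe65. The lowest of them, Best1, averaged only 0.881 CPM in wild type and 0.801 in knockout. Rod photoreceptor transcripts were present as well, at a summed 16393 to 94022 CPM over 14 genes. Mean reads of the targeted genes were higher in knockout at CT19, CT22 and CT1 and lower at CT10. Per1 had group means of 38.9 to 45.9 CPM in wild type at the first 3 of these times and 126.2 to 165 CPM in knockout, and 130.6 and 95.8 CPM at CT10. For Per2 they were 15.5 to 25.3 and 105.6 to 129 CPM at those 3 times, and 137 and 96.7 CPM at CT10. Counts over a whole gene do not show whether a deleted stretch is missing, so these values do not check the labels. In bulk RNA, fewer cells of a type and less RNA per cell cannot be told apart.

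As background, PER1 and PER2 are repressors of the circadian clock. They hold back the activator pair CLOCK and BMAL1, which binds the E-box, a short DNA motif with the core letters CACGTG. Some of the genes so driven encode PAR bZIP factors such as DBP, TEF and HLF, which bind a different motif, the D-box, of which TTATGTAA is a strong form. The 8 genes do not belong to one pathway. Gzmm encodes granzyme M, a serine protease known from the granules of natural killer cells, and Plk5 a member of the polo-like kinase family. Coq10b encodes a mitochondrial protein that binds coenzyme Q. Unc5c encodes a netrin receptor and Ntng1 a membrane-anchored relative of the netrins, both known from axon guidance. Stk3 encodes MST2, a core kinase of the Hippo pathway. Gdpd2 encodes a membrane phosphodiesterase that acts on glycerophosphodiesters, and Cys1 encodes cystin, a protein of the primary cilium whose loss causes cystic kidneys in mice.

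RefSeq start site windows, each running from 250 bases before a transcript start to 50 after it on GRCm38.p6, were matched for 7 of the 8 genes, 9 windows in all. The windows of Gzmm and Coq10b are printed because each holds both CACGTG and TTATGTAA, searched on both strands and shown in capitals. For Gzmm it is the second of 2 start sites, inside the gene, at chr10:79693576-79693875 on the plus strand. For Coq10b it is the window at chr1:55052520-55052819, also on the plus strand.
Gzmm second start site: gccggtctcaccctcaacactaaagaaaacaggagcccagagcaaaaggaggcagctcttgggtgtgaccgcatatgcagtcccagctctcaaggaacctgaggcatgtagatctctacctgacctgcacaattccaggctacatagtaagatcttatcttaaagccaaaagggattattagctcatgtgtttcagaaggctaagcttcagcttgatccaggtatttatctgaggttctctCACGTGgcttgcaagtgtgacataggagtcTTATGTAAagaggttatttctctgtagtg
Coq10b start site: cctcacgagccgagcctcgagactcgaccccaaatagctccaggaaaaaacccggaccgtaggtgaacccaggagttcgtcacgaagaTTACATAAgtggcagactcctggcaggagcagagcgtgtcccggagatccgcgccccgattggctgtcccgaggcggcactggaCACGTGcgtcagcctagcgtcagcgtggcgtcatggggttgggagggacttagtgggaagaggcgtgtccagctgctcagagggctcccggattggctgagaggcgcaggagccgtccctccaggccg
In the Gzmm window the CACGTG begins 9 bases before the start site and the TTATGTAA 21 bases after it. In the Coq10b window CACGTG begins 78 bases and the D-box letters, on the opposite strand as TTACATAA, 162 bases before the start. The other 7 windows of these genes, among them the first start site of Gzmm, hold neither motif. Of all 32851 RefSeq windows of this length, 7.15% hold CACGTG, 0.938% hold TTATGTAA and 0.0244% (8 windows) hold both. Counted by gene, 0.0518% of 27025 genes have a window with both. Of the 14 clock genes listed below, 12 have a window, 5 of them with CACGTG and 1 with TTATGTAA. The motifs were chosen with the windows in view, and a match is a run of letters, not a binding site.

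The genotype average was fitted with edgeR as the log2 difference between genotypes, knockout over wild type, with each of the 4 times given equal weight. It passed a Benjamini-Hochberg adjusted p of 0.05 for 76 genes (0.375% of those tested), 46 of them higher in knockout (0.227%) and 30 lower (0.148%). With so small a share, a short list or neighbourhood would mostly hold 0 such genes. Nothing is therefore read from counts of 0 for the genotype average below. The 46 were 13 clock genes of a list of 14 with E-boxes or D-boxes, 2 genes within 20 Mb of Per1 or Per2 (Rasl10b and AA465934), the 8 genes described here, and 23 others. Of those 23, 12 also had at least 5 CPM and the same sign at every time, so the 8 are a part of such genes and not all of them. The median of the 8 was 1.01, against 0.02 over all genes tested. Ranked by size among the 46, they ran from rank 5 (Gzmm, 1.92) to rank 27 (Ntng1, 0.76). Just below Ntng1 stood the clock genes Cry2 (0.72), Tef (0.69) and Nr1d2 (0.69), and the next gene outside the clock list was Ccdc85b at 0.68.

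**Figure D1:**
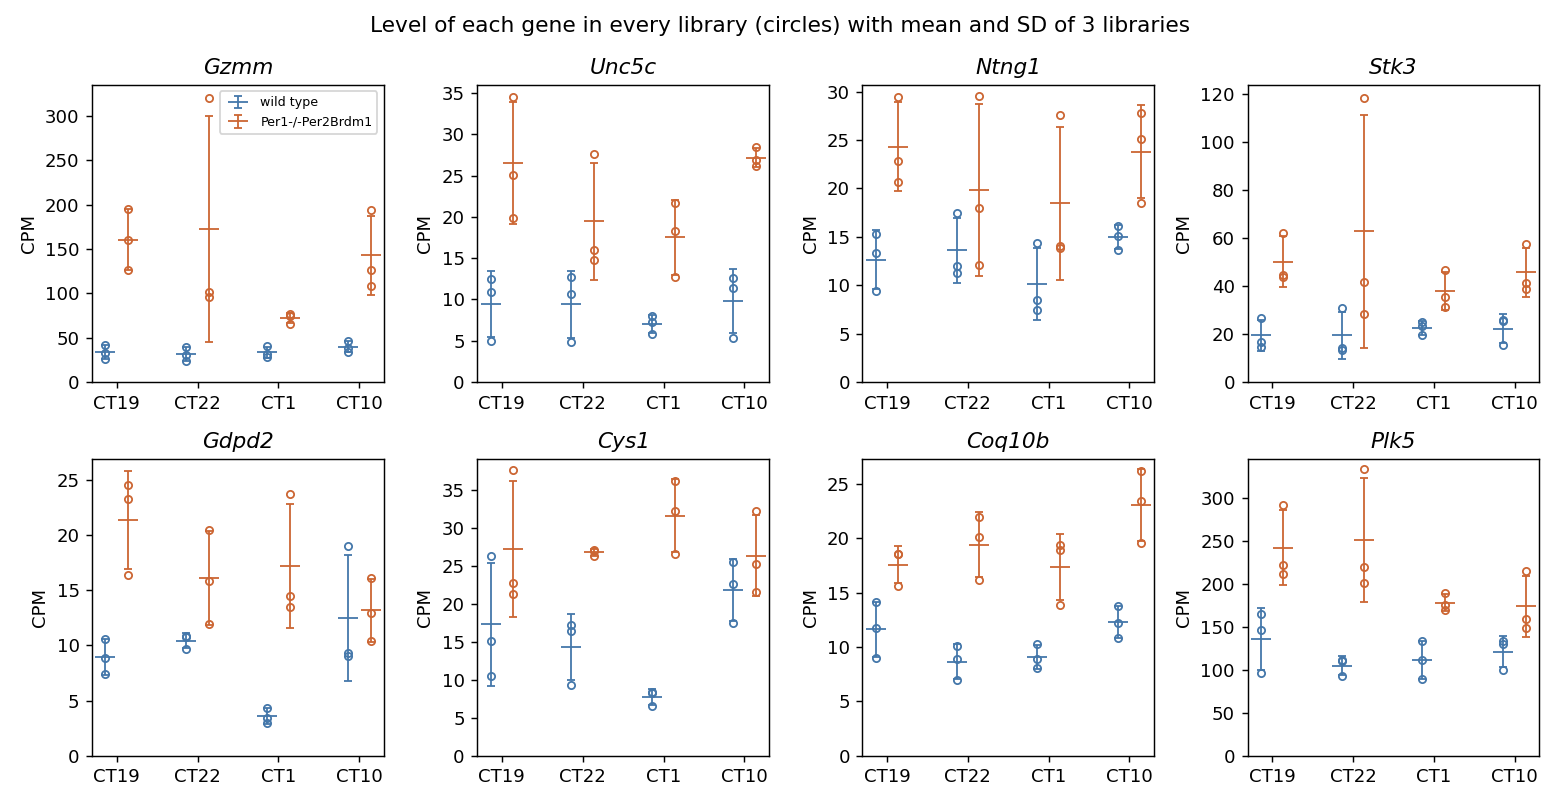
Level in CPM (vertical axis) of each of the 8 genes in every library (circles) at CT19, CT22, CT1 and CT10, with the mean and SD of 3 libraries, wild type in blue and Per1-/-Per2Brdm1 in orange. Gzmm libraries lie at 23.5 to 46.6 CPM in wild type and at 65.3 to 320.1 CPM in knockout; Gdpd2 and Cys1 dip in wild type at CT1.

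Gzmm (ENSMUSG00000054206, GRCm38 chromosome 10, 79689020 to 79695261, plus strand) had the largest difference of the 8, with a genotype average of 1.92 on the log2 scale (SE 0.18). In wild type its libraries read 41.5, 33.0 and 26.2 CPM at CT19, 23.5, 39.1 and 30.6 at CT22, 31.0, 28.6 and 40.6 at CT1, and 34.3, 38.5 and 46.6 at CT10. In knockout they read 126.4, 195 and 160.2 CPM at CT19, 96.3, 320.1 and 101 at CT22, 76.3, 73.9 and 65.3 at CT1, and 126.3, 108 and 194 at CT10. Every one of the 12 knockout libraries was above every wild type library. Of all genes tested, 6 (0.0296%) showed that, and Gzmm was the only one of the 8. Group means were 31.1 to 39.8 CPM in wild type, and in knockout 160.4 ± 34.2 (SD, n = 3) at CT19, 172 ± 127.9 at CT22, 71.8 ± 5.82 at CT1 and 143 ± 45.0 at CT10. The knockout CT1 libraries lay below all 9 others of that genotype. That difference over time in knockout had a log2 range (highest minus lowest fitted time) of 1.26 and did not pass edgeR's quasi-likelihood test after Benjamini-Hochberg adjustment (adjusted p = 0.3, unadjusted p = 0.0075). The interaction did not pass either (range 1.37, edgeR, adjusted p = 0.22).

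Since granzyme M is known from lymphocytes, markers of T cells and natural killer cells were read beside it. Their summed level over 15 genes was 2.49 to 10.7 CPM in wild type (median 7.69) and 1.96 to 36.6 CPM in knockout (median 6.67). The library with the most Gzmm, knockout CT22 replicate 2 at 320.1 CPM, had 3.18 CPM of these markers, and the library with the most markers had 108 CPM of Gzmm. The other granzymes and perforin were near 0: Gzma averaged 0.773 CPM in wild type and 0.684 in knockout, Gzmb 0.169 and 0.227, and Prf1 0.198 and 0.226. Genes of the same list that lysosomes of other cells also use were abundant, Ctsc at 145 and 162 CPM and Lamp1 at 194 and 207 CPM. None of the 12 tested T cell and natural killer cell markers passed the genotype average in edgeR, in DESeq2 or at an unadjusted p of 0.05, and their median genotype average was 0.52. Of a list of 16 granzyme and cytotoxic granule genes other than Gzmm, 15 were in the table and 8 were tested, and 0 passed in edgeR and in DESeq2, or had an unadjusted p under 0.05. Their median was 0.15.

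Rod transcripts did move with Gzmm among the knockout libraries. Knockout CT22 replicate 2 also had the most rod RNA, a summed 94022 CPM, and the knockout CT1 group, lowest for Gzmm, had the least of the knockout groups (24339 to 29840 CPM). In wild type the rod sum was highest at CT1 (57085 to 81790 CPM), where Gzmm read 28.6 to 40.6 CPM. With a rod score per library in the fit, the genotype average of Gzmm was 1.76 and its knockout range over time 0.55. Without knockout CT22 replicate 2 the average was 1.70.

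**Figure D2:**
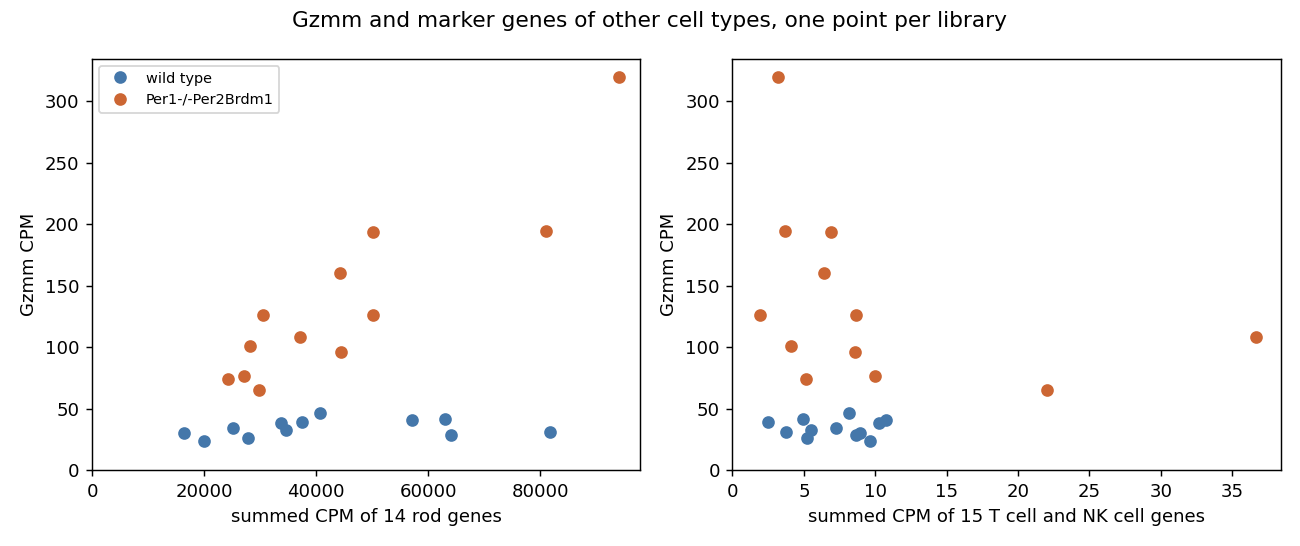
Gzmm level (CPM, vertical axes) against the summed CPM of 14 rod genes (left) and of 15 T cell and NK cell genes (right), 1 point per library, wild type in blue and Per1-/-Per2Brdm1 in orange. The knockout library at 320.1 CPM has the highest rod sum, 94022 CPM, and 3.18 CPM of lymphocyte markers; wild type points lie at or under 46.6 CPM at every rod sum.

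Plk5 (ENSMUSG00000035486, chromosome 10, 80356459 to 80365489, plus strand) starts 667.4 kb from Gzmm and had the most reads of the 8. Wild type libraries read 166, 146 and 95.9 CPM at CT19, 110.1, 112.1 and 92.5 at CT22, 133.4, 89.1 and 111.3 at CT1, and 133.6, 100.3 and 130.4 at CT10. Knockout libraries read 212, 293 and 223 CPM at CT19, 220.0, 334 and 201 at CT22, 170.4, 176 and 189 at CT1, and 149, 159 and 215 at CT10. The groups did not overlap at any of the 4 times. The log2 difference was 0.84 at CT19, 1.26 at CT22, 0.68 at CT1 and 0.52 at CT10, and the genotype average was 0.83 (SE 0.11). Highest again was knockout CT22 replicate 2, and without it the average was 0.74.

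The genes around this pair did not pass. Within 500 kb of the Gzmm start, 42 other genes were tested, with a median genotype average of 0.05, and around Plk5 60 were tested, with a median of -0.01. None was called in either set. Between 1000 kb before and after the Gzmm start, 72 genes other than Plk5 were tested. Of these, 0 passed in edgeR and 0 in DESeq2. In edgeR 4 had an unadjusted p under 0.05, 3 of them higher in knockout. Close to the pair, Cdc34 (6.8 kb from the Gzmm start) averaged 0.30, Hcn2 (27.6 kb) 0.34 and Adamtsl5 (17.3 kb from the Plk5 start) 0.49. None of them passed (edgeR, adjusted p = 0.26, 0.47 and 0.45). Neighbours with log2 values above Plk5 had few reads, such as Fgf22 at 0.117 CPM and Madcam1 at 0.298 CPM on average. For the other polo-like kinases, 0 of 4 passed in edgeR and in DESeq2, and 1 had an unadjusted p under 0.05. Their median was -0.16, and Plk2 averaged 16.7 CPM in wild type and 16.8 in knockout.

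**Figure D3:**
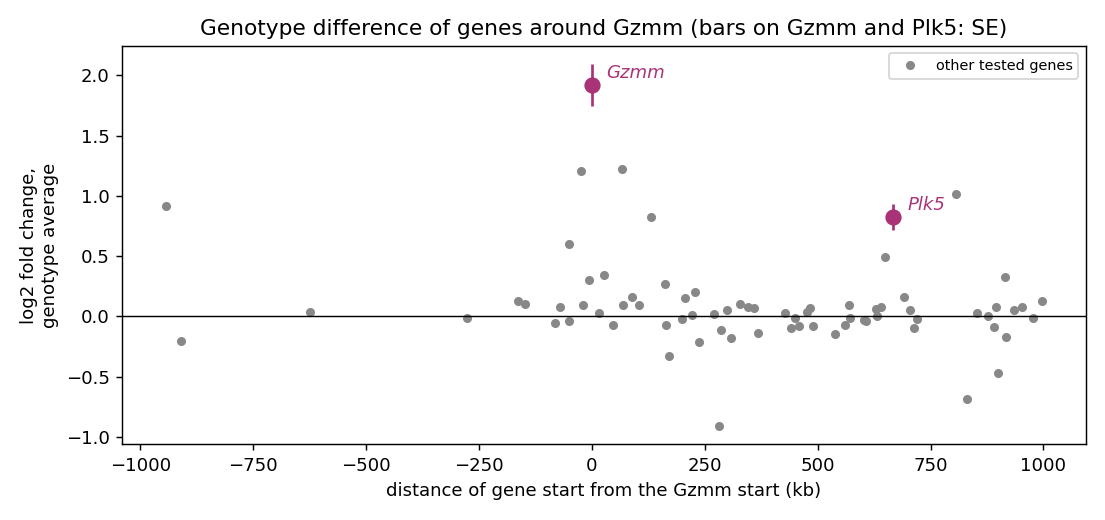
Genotype average (log2 fold change, knockout minus wild type, vertical axis) of tested genes against the distance of their start from the Gzmm start in kb (horizontal axis), with bars for the SE on Gzmm and Plk5. Gzmm stands at 1.92 and Plk5, 667.4 kb away, at 0.83; none of the 72 other genes passed the test.

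Coq10b (ENSMUSG00000025981, chromosome 1, 55052770 to 55072702, plus strand) lies on the chromosome of Per2, 36.36 Mb away. Wild type libraries read 9.02, 11.8 and 14.1 CPM at CT19, 6.94, 10.1 and 8.93 at CT22, 8.92, 10.3 and 8.07 at CT1, and 10.8, 13.8 and 12.2 at CT10. Knockout libraries read 18.6, 15.6 and 18.5 CPM at CT19, 16.2, 21.99 and 20.1 at CT22, 18.9, 19.4 and 13.9 at CT1, and 26.2, 19.6 and 23.5 at CT10. No time showed an overlap, and the difference ran from 0.60 at CT19 to 1.17 at CT22, with an average of 0.90 (SE 0.11). CT10 had the highest mean in both genotypes, 12.3 ± 1.48 CPM in wild type and 23.1 ± 3.29 in knockout (SD, n = 3), though each time overlapped the next in that order. The gene E330011M16Rik overlaps 343 exon bases of Coq10b on the opposite strand and had at most 16 counts in a library.

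Genes of the coenzyme Q list had genotype averages of -0.09 to 0.20 on the log2 scale, against 0.90 for Coq10b. Of 13 genes, 0 passed the genotype average in edgeR and in DESeq2, or had an unadjusted p under 0.05, and their median was 0.02. Coq10a, the close relative of Coq10b, averaged 53.8 CPM in wild type and 50.8 in knockout. Coq5, a methyltransferase of coenzyme Q synthesis, was the one member whose genotype difference changed over time (log2 range 1.27, edgeR, adjusted p = 0.033), 1 of 13 against 4.62% of all genes. With the rod score, 19 genes in all passed the interaction in place of 937. Among the 16 tested genes within 500 kb of Coq10b none was called. At 802.1 kb, Ccdc150 passed with a log2 of 2.26 (edgeR, adjusted p = 0.041), at a mean of 0.67 CPM.

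Unc5c (ENSMUSG00000059921, chromosome 3, 141465216 to 141834924, plus strand) read 4.91, 10.8 and 12.5 CPM at CT19 in wild type, 12.7, 10.7 and 4.83 at CT22, 7.96, 7.26 and 5.87 at CT1, and 5.32, 12.5 and 11.4 at CT10. Knockout libraries read 34.5, 25.1 and 19.9 CPM at CT19, 16.03, 14.8 and 27.6 at CT22, 21.7, 18.3 and 12.7 at CT1, and 26.9, 28.4 and 26.2 at CT10. The groups did not overlap at any time, and the log2 difference stayed between 1.05 and 1.49, averaging 1.34 (SE 0.18). Both genotypes had their lowest mean at CT1 and their highest at CT10, each time overlapping the next in that order. Gm15688 overlaps an exon of Unc5c on the opposite strand and had at most 11 counts.

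Ntng1 (ENSMUSG00000059857, chromosome 3, 109780040 to 110144011, minus strand) had the smallest difference of the 8, 0.76 (SE 0.16), and lies 31685.2 kb from Unc5c. Wild type libraries read 15.2, 9.36 and 13.3 CPM at CT19, 17.5, 11.98 and 11.3 at CT22, 8.47, 14.4 and 7.47 at CT1, and 15.1, 13.6 and 16.1 at CT10. Knockout libraries read 29.5, 20.6 and 22.8 CPM at CT19, 18.0, 12.1 and 29.5 at CT22, 14.01, 27.6 and 13.8 at CT1, and 27.8, 25.1 and 18.5 at CT10. The genotypes overlapped at CT22 and CT1, where 1 knockout library at each time, 29.5 and 27.6 CPM, stood well above the other 2. Ntng1 was also the member nearest the threshold of the choice. Without knockout CT1 replicate 4and6 its average was 0.64 and its adjusted p in edgeR 0.054, which describes the choice and is no test.

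Of 17 tested netrins, netrin receptors and netrin-G partners other than these, 0 passed the genotype average in edgeR and in DESeq2, and 1 had an unadjusted p under 0.05. Their median was 0.08. The most abundant, Ntn4, a netrin of basement membranes, averaged 217 CPM in wild type and 234 in knockout. Ntng2, the close relative of Ntng1, averaged 89.4 and 86.9 CPM, and Neo1, the netrin receptor neogenin, 89.3 and 95.7 CPM. The relatives Unc5a and Unc5b averaged 4.48 and 6.49 CPM in wild type and 4.11 and 7.14 in knockout. Near Unc5c and Ntng1, 1 and 3 other genes were tested within 500 kb, and none was called.

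Stk3 (ENSMUSG00000022329, chromosome 15, 34875496 to 35178921, minus strand) read 16.8, 14.4 and 26.8 CPM at CT19 in wild type, 14.1, 13.4 and 30.7 at CT22, 23.4, 25.2 and 19.4 at CT1, and 25.5, 26.0 and 15.3 at CT10. Knockout libraries read 43.9, 44.4 and 62.2 CPM at CT19, 28.2, 118.3 and 41.8 at CT22, 46.8, 35.5 and 31.2 at CT1, and 41.1, 57.3 and 38.7 at CT10. The genotypes overlapped at CT22 alone, by 28.2 CPM in the lowest knockout library against 30.7 CPM in the highest of wild type. The genotype average was 1.21 (SE 0.20), and 0.98 without knockout CT22 replicate 2, the library at 118.3 CPM that was also highest for Gzmm, Plk5 and rod transcripts. With the rod score in the fit the average was 1.17.

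No other Hippo gene passed the genotype average in edgeR or in DESeq2, of 28 tested, and 1 had an unadjusted p under 0.05. Their log2 values ran from -0.25 to 0.18. The partner kinase Stk4 (MST1) averaged 43.1 CPM in wild type and 45.0 in knockout, the scaffold Sav1 44.3 and 46.0 CPM, and the downstream kinase Lats1 65.8 and 68.3 CPM. The coactivator Yap1 averaged 144 CPM in wild type and 139 in knockout. Of 10 tested genes within 500 kb of Stk3, none was called.

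Gdpd2 (ENSMUSG00000019359, chromosome X, 100729873 to 100738895, plus strand) changed over the day in wild type and its genotype difference changed with it. Wild type libraries read 8.81, 10.6 and 7.41 CPM at CT19, 10.9, 10.8 and 9.65 at CT22, 3.44, 2.997 and 4.35 at CT1, and 9.34, 9.05 and 19.03 at CT10. All 3 at CT1 lay below the 9 others. Knockout libraries read 23.2, 24.5 and 16.3 CPM at CT19, 20.5, 11.9 and 15.9 at CT22, 14.5, 23.7 and 13.4 at CT1, and 16.1, 13.0 and 10.4 at CT10, with no such dip. The wild type range over time was 1.79 on the log2 scale and passed edgeR's quasi-likelihood test (adjusted p = 0.025). The log2 difference between genotypes was 1.26 at CT19, 0.62 at CT22, 2.26 at CT1 and 0.08 at CT10, and this change over time passed the genotype by time interaction (range 2.18, edgeR, adjusted p = 0.026). At CT10 the genotypes overlapped, with a mean of 12.5 ± 5.68 CPM in wild type and 13.2 ± 2.87 in knockout (SD, n = 3). Gm14866 shares 799 exon bases with Gdpd2 on the opposite strand, with at most 6 counts.

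Cys1 (ENSMUSG00000062563, chromosome 12, 24665833 to 24681813, minus strand) also changed over the day in wild type. Wild type libraries read 26.3, 10.6 and 15.1 CPM at CT19, 9.34, 16.4 and 17.2 at CT22, 8.34, 6.50 and 8.25 at CT1, and 25.5, 22.6 and 17.4 at CT10. Here too the 3 libraries at CT1 were the lowest of wild type. Knockout libraries read 22.7, 21.4 and 37.6 CPM at CT19, 27.1, 26.3 and 27.0 at CT22, 36.2, 32.2 and 26.6 at CT1, and 21.6, 25.3 and 32.2 at CT10. Their means stayed between 26.4 and 31.7 CPM, and CT1 was the highest of them. The wild type range of 1.51 passed (edgeR, adjusted p = 0.04), as did the interaction, with a range of 1.77 (edgeR, adjusted p = 0.039). The log2 difference was 0.65 at CT19, 0.90 at CT22, 2.04 at CT1 and 0.27 at CT10.

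These 2 results rest on few libraries. The Gdpd2 call in wild type was lost without wild type CT1 replicate 2 (adjusted p = 0.087) or replicate 3and6 (0.098), and its interaction without either of these, knockout CT1 replicate 4and6 or knockout CT10 replicate 4 (edgeR, adjusted p of 0.054 to 0.088). The Cys1 call in wild type was lost in 11 of 24 fits that left out 1 library: wild type CT19 replicate 4, CT22 replicate 6, any at CT1 or CT10, and knockout CT1 replicates 1 and 4and6 and CT10 replicate 3and5 (edgeR, adjusted p up to 0.16). Its interaction was lost in 15 of 24, without wild type CT19 replicate 4, wild type CT22 replicate 1 or 6, or any CT1 or CT10 library of either genotype (edgeR, adjusted p up to 0.12). Without the 5 pooled libraries neither gene passed in wild type (edgeR, adjusted p = 0.11 for Gdpd2 and 0.2 for Cys1) or in the interaction (0.091 and 0.19). With 1 library left out, the ranges themselves stayed between 1.54 and 2.00 for Gdpd2 and between 1.39 and 1.68 for Cys1 in wild type.

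Rod transcripts also differed between these groups, though not library by library: wild type CT19 replicate 1, at 63021 CPM, had the highest Cys1 of wild type, 26.3 CPM, and 8.81 CPM of Gdpd2. The rod sum was 57085 to 81790 CPM at CT1 in wild type, where Gdpd2 and Cys1 were lowest, against 16393 to 63021 CPM at the other wild type times. At CT1 in knockout it was 24339 to 29840 CPM. Of the 14 rod genes, 10 passed the interaction. With the rod score in the fit, the wild type range was 1.75 for Gdpd2 (edgeR, adjusted p = 0.051) and 1.65 for Cys1 (adjusted p = 0.046). The interaction ranges were then 2.11 and 1.99, against 2.18 and 1.77 without the score. Neither passed (edgeR, adjusted p = 0.18 and 0.19), in a fit where 19 genes in all passed the interaction in place of 937. The part of rod RNA in these results was not tested further.

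**Figure D4:**
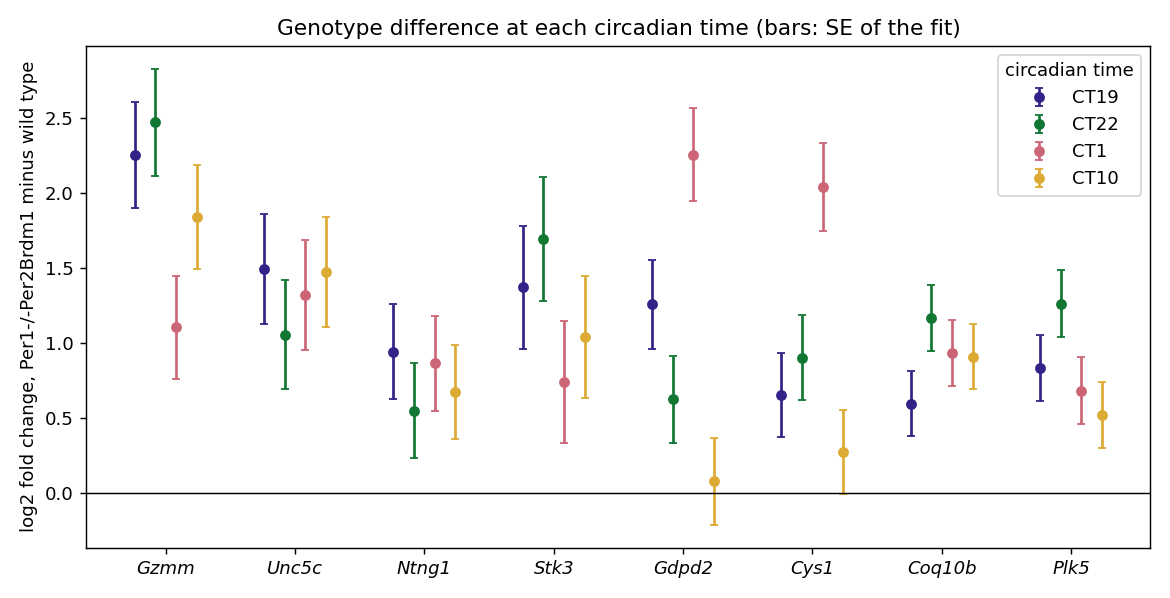
Log2 fold change, Per1-/-Per2Brdm1 minus wild type (vertical axis), of each of the 8 genes at CT19, CT22, CT1 and CT10 (colours), with bars for the SE of the fit. Gdpd2 ranges from 0.08 at CT10 to 2.26 at CT1 and Cys1 from 0.27 to 2.04 at the same times, while Unc5c stays between 1.05 and 1.49.

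Other phosphodiesterase genes of the Gdpd2 family did not pass the genotype average in edgeR (0 of 6, 1 at an unadjusted p under 0.05). Gdpd3, a lysophospholipase D, averaged 7.66 CPM in wild type and 3.07 in knockout, a log2 of -1.33 that did not pass in edgeR (adjusted p = 0.15) and passed in DESeq2. Of 23 tested genes of cystin partners and cystic kidney cilium proteins, 0 passed the genotype average in edgeR and in DESeq2, 2 had an unadjusted p under 0.05, and 7 passed the interaction, against 4.62% of all genes. Of these, Unc119 and Arl3 take part in the transport of lipid-anchored proteins into cilia and are abundant in photoreceptors. They had interaction ranges of 2.20 and 2.05 (edgeR, adjusted p = 0.034 and 0.029). Rod RNA, as given above, also differed between groups at these times. Of 9 tested genes within 500 kb of Gdpd2 and 12 near Cys1, none was called.

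Over the 8 genes, the change over time in wild type passed for Gdpd2 and Cys1, 2 of 8, against 192 genes or 0.947% of all tested. The other 6 had wild type ranges of 0.23 to 0.56 on the log2 scale, and the median over all genes was 0.72. That median includes genes with few reads, whose ranges also hold more scatter between libraries, so nothing is read from the difference. In knockout none of the 8 passed, and neither did any gene (0%) in edgeR, where 2364 genes, Gzmm and Plk5 among them, had an unadjusted p under 0.05. DESeq2 called 294 genes and none of the 8. The interaction passed for 2 of 8, against 937 genes or 4.62%. Asked whether the difference at CT10 departed from the mean of the other 3 times, 0 of 8 passed in edgeR, against 50 genes or 0.247%, 33 of them lower at CT10 (0.163%); with RLE scaling it was 89 genes, 74 of them lower. Unadjusted, 3695 genes and 2 of the 8 had a p under 0.05, and DESeq2 called 986 genes and the same 2, Gdpd2 and Cys1. Their values were -1.30 (SE 0.34; edgeR, adjusted p = 0.081) and -0.93 (SE 0.32; adjusted p = 0.14).

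The clock genes with E-boxes or D-boxes gave other counts in the same tests. Of 14, 8 changed over time in wild type, 0 in knockout, 9 passed the interaction and 7 the CT10 contrast, and 13 were higher in knockout on average. Dbp and Per2 are examples, with genotype averages of 1.03 and 1.79. That list was drawn up with earlier results of these libraries known and is no independent evidence. Gdpd2 and Cys1 passed the wild type and interaction tests as most of that list did. Unc5c, Ntng1, Stk3, Coq10b, Plk5 and Gzmm did not, and a p above the threshold does not show that they are constant.

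**Figure D5:**
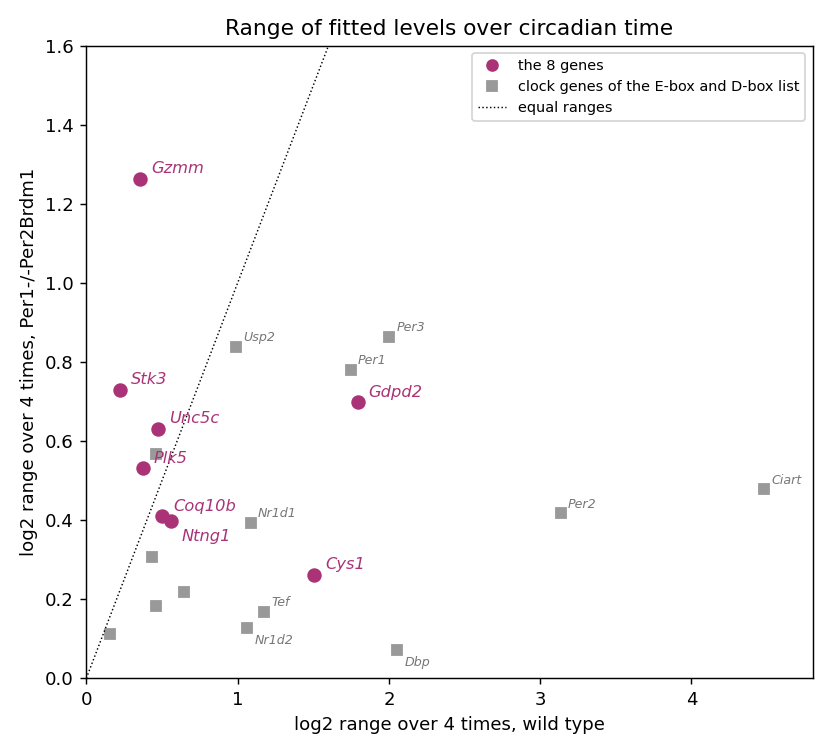
Log2 range of the fitted level over CT19, CT22, CT1 and CT10 in wild type (horizontal axis) and in Per1-/-Per2Brdm1 (vertical axis, on a different scale), for the 8 genes (purple) and the clock list (grey squares); the dotted line marks equal ranges. Gdpd2 (1.79 in wild type) and Cys1 (1.51) lie among clock genes such as Per1 (1.75); Gzmm lies alone at the upper left with 0.36 in wild type and 1.26 in knockout.

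At single times, the share of the 8 genes with all 3 knockout libraries above all 3 of wild type was 7 at CT19, 6 at CT22, 7 at CT1 and 6 at CT10. Among all genes it was 3.96%, 8.01%, 10.1% and 17.7% at those times. Since the average over these same times chose the genes, nothing is read from those counts. Gzmm, Unc5c, Coq10b and Plk5 did so at all 4 times, which 11 of all genes did (0.0543%).

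Likeness between genes was measured over the 24 libraries as the root mean square distance between standardised log2(CPM + 1) profiles, among 15234 genes. The median distance of the 8 to all genes was 1.35 to 1.40. Nearest to Gzmm were Rasl10b (0.45), which lies 14.31 Mb from Per1, and Plk5 (0.46). Nearest to Plk5 were Gzmm and Trak1 (0.51), and nearest to Stk3 were Gzmm (0.58) and Eif3b (0.65). Coq10b was nearest to the clock output gene Hlf (0.47) and to Tsc22d3 (0.56). Cys1 was nearest to the clock genes Tef (0.57) and Per2 (0.62), and Gdpd2 to Nr2e1 (0.61) and Tef (0.62). Unc5c was nearest to Coq10b (0.57) and Gm15348 (0.60), and Ntng1 to Dab1 (0.58). All of these except Nr2e1 were themselves called higher in knockout, a difference the profiles share by the choice of the 8. These are descriptions over the same libraries.

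Per length of exon, which lets levels be compared between genes, Plk5 was the most abundant of the 8 in wild type, with group means of 39.2 to 50.7 CPM per kb, followed by Gzmm at 21.1 to 27.0. In knockout Gzmm had the higher mean at CT19 (109 against 90.5 CPM per kb) and at CT10 (96.9 against 65.0), and Plk5 at CT1 (66.7 against 48.8). At CT22 replicate 2 read 217 CPM per kb for Gzmm and 124.7 for Plk5, while Plk5 was the higher in the other libraries (82.2 against 65.4, and 75.0 against 68.5). Cys1 (2.61 to 10.7 CPM per kb over all groups) and Stk3 (3.17 to 10.3) came next. Gdpd2, Coq10b and Ntng1 had group means of at most 4.64, 4.801 and 2.95 CPM per kb. Unc5c was the least abundant, at 0.367 to 0.510 CPM per kb in wild type and 0.917 to 1.42 in knockout.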

How the data were processed

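RNA-seq was done on laser-captured RPE with the KAPA mRNA HyperPrep kit, per the labels' protocols. The authors deposited raw read counts per gene, not normalized. Tools named by the submitters' processing notes are HTSeq 0.11, Cufflinks, HISAT2 2.1.0 and Trimmomatic 0.32, and the build is GRCm38.p6. The tools' roles, the annotation release and whether counting used strand are not given in the sources used here, so genes overlapping on opposite strands are uncertain. Symbols were matched for 54165 of 54232 identifiers.

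Counts were fitted with edgeR 4.0.16 in R 4.3.3: filterByExpr (minimum count 10), TMM scaling, 8 group means and robust quasi-likelihood tests on 16 residual degrees of freedom. P-values were adjusted by Benjamini-Hochberg over 20275 genes and called under 0.05. CPM values use the TMM factors. The fit was tested on simulated data. The main fit did not pair libraries by the replicate numbers in the labels. Over 30 same-numbered pairs in different groups the median correlation of deviations was 0.012 (-0.239 to 0.479). Over 222 differently numbered pairs it was -0.013 (-0.535 to 0.457). A median near 0 does not exclude pairing of some libraries. The alternatives were other scalings and filters, DESeq2 1.42.0, a replicate block, and fits that left out libraries or held rod or choroid scores.

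The 8 genes and all lists were chosen with earlier results of these data known. Text names these genes, list members that passed or were among the 3 with the highest levels, the 2 nearest profiles and called neighbours; a few genes under this rule are not reported here. Close relatives and partners (such as Unc5a, Stk4, Gdpd3), Fgf22, Madcam1, Cdc34, Hcn2, Adamtsl5 and Ccdc150 were picked after their values were seen.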

Additional observations from a re-analysis of the deposited data

Results flagged for a closer look

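For 2 of the 8 genes the difference between genotypes itself differed between circadian times, by the test of the interaction. Gdpd2 had a log2 difference, knockout minus wild type, of 2.26 at CT1 and 0.08 at CT10, a range of 2.18 over the 4 times (edgeR, adjusted p = 0.026). Cys1 had 2.04 at CT1 and 0.27 at CT10, a range of 1.77 (edgeR, adjusted p = 0.039). In both genes all 3 wild type libraries at CT1 were below every other wild type library. Summed rod transcripts were 57085 to 81790 CPM in these 3 libraries and 24339 to 29840 CPM in the knockout libraries of that time. Their part in the result was not tested beyond the fit with a rod score, in which the ranges were 2.11 and 1.99 and neither passed (edgeR, adjusted p = 0.18 and 0.19). In that fit 19 genes in all passed the interaction, in place of 937. Neither Gdpd2 nor Cys1 passed without the pooled libraries or with the replicate block either.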

How the results depend on the processing

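The knockout minus wild type averages of the 8 genes kept their sign in every alternative and moved by less than the SD within groups. No direction reversed. The replicate block left 7 residual degrees of freedom; with it, the averages of Ntng1, Gdpd2 and Plk5 had adjusted p of 0.17, 0.18 and 0.062. Without the 5 pooled libraries that of Ntng1 was 0.055 (edgeR). These p-values belong to the comparison that chose the genes, so they describe that choice and do not test the 8.

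The number of genes changing over time in wild type (192) was 2159 with no filter on low counts, 15 with the replicate block, 25 without pools, 989 with the choroid score and 1441 in DESeq2. Of the 8 genes, 2 passed, against 0 with the block, 0 without pools and 1 with the rod score. With the block the adjusted p in edgeR was 0.28 for Gdpd2 and 0.31 for Cys1. In knockout (0 genes) the count was 1253 with no filter, 2 without pools and 294 in DESeq2; with no filter 1 of the 8, Gzmm, passed (adjusted p = 4.6e-07).

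For the interaction (937 genes) it was 2686 with no filter, 3 with the block, 298 without pools, 19 with the rod score, 398 with the choroid score and 2501 in DESeq2. Of the 8, 0 passed with the block, 0 without pools and 0 with the rod score. With the block the adjusted p was 0.29 for Gdpd2 and 0.53 for Cys1. With no filter Gzmm also passed (adjusted p = 0.00022).

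For the CT10 contrast (50 genes) it was 89 with RLE scaling, 1043 with no filter, 487 at a mean of at least 5 CPM, 7 with the block, 7 without pools, 364 with the rod score, 416 with the choroid score and 986 in DESeq2. Of the 8, 2 passed with no filter, 1 at 5 CPM, 1 with the rod score, 1 with the choroid score and 2 in DESeq2, against 0. The single gene was Gdpd2. For the genotype average (46 genes higher, 30 lower) it was 168 and 210 with no filter, 23 and 13 with the block, 72 and 50 with the rod score, and 83 and 93 in DESeq2. The causes of these shifts were not tested.

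Leaving out 1 library in turn gave 16 (without wild type CT10 replicate 1) to 686 genes (without knockout CT22 replicate 2) over time in wild type, with 0 to 2 of the 8. In knockout it gave 0 to 3 (without knockout CT10 replicate 2), with 0 of the 8 in every fit. The interaction gave 20 (without wild type CT1 replicate 2) to 1688 (without knockout CT22 replicate 1and4), with 0 to 2 of the 8. The CT10 contrast gave 8 (without wild type CT10 replicate 1) to 536 (without knockout CT22 replicate 2), with 0 to 1, and the genotype average 37 to 52 genes higher and 24 to 38 lower. Counts of the 8 genes went down to 54 in a library (Gdpd2), which limits their precision.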
